A study of Mus musculus with 3 samples.

Results

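The unfolded protein response and the integrated stress response were examined through 10 genes, Atf4, Ddit3, Xbp1, Hspa5, Atf6, Ern1, Eif2ak3, Ppp1r15a, Trib3 and Herpud1, chosen by symbol. They are 10 of 55536 annotated genes in the gene tables, of which 24180 had a nonzero value and were tested. The RNA came from the chromatin fraction of macrophages grown from C57BL/6J bone marrow and was sequenced after ribosomal RNA depletion. There was 1 group: macrophages given lipid A, the TLR4-activating part of lipopolysaccharide, at 100 ng/ml for 12 h, then left without it for 12 h, then given the same dose again for 30 min. It had 3 biological replicates that share a donor identifier, so the spread between them may be partly technical. The labels give separate biosamples and do not record sex or age. Replicate 1 started from 1 µg of RNA, replicate 2 from 250 ng and replicate 3 from 500 ng, so input and replicate cannot be told apart. Macrophages without lipid A, or with 1 exposure, were not analysed here, so every value below is a level and none is a response to lipid A.

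Protein folding in the endoplasmic reticulum (ER) is watched by 3 membrane sensors. When unfolded protein draws the chaperone BiP away, IRE1 (Ern1) excises a short intron from Xbp1 mRNA so that it encodes an active transcription factor, ATF6 moves to the Golgi and is cut to release another, and PERK (Eif2ak3) phosphorylates the translation factor eIF2alpha. That phosphorylation, which other kinases also make, lowers general translation while Atf4 mRNA is translated better, and ATF4 drives genes of amino acid supply together with CHOP (Ddit3). In macrophages TLR signals are known to engage parts of this system, IRE1 and XBP1 above all.

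Total expected counts (reads assigned to genes by an estimation step, so not whole) were 12532722 to 18395358 per library. The 8 macrophage markers examined, among them Adgre1 and Csf1r, all lay above 1 TPM (a share of all transcripts, corrected for their lengths), with summed levels of 1090 to 1140 TPM per library. None of 19 lymphoid, granulocyte and mast cell, stromal, endothelial, epithelial or erythroid markers was called above 1 TPM by limma, the test used below. Pecam1 came nearest, with 1.14, 2.08 and 1.55 TPM in replicates 1, 2 and 3 (limma adjusted p = 0.0546). The highest of these 4 lists, that of stromal, endothelial and epithelial markers, which holds Pecam1, summed to 1.19, 3.39 and 2.78 TPM in those replicates. By these calls, none of the markers went against the label.

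All 10 genes had chromatin RNA in every library, and their mean levels ran from 6.39 TPM for Eif2ak3 to 226 TPM for Ppp1r15a. With limma, all 10 lay above 1 TPM, where 51.1% of all genes tested and 61.8% of protein-coding genes tested did so. Above 10 TPM were 7 of the 10, where 18.1% of all genes and 25.3% of protein-coding genes were. The 3 that did not pass the upper floor were Herpud1, Trib3 and Eif2ak3. The median over the 10 genes was 36.9 TPM, beside 4.17 TPM over the protein-coding genes tested. These genes were picked with results of these data known, so the comparison with all genes describes the list and tests nothing about it. TPM is a share, and protein-coding genes held only 33.3%, 29.7% and 31.4% of it in the 3 libraries. Rescaled to protein-coding genes alone, which raises the TPM of every coding gene, all 10 passed the floor of 10 TPM. The share of protein-coding genes passing after rescaling is not given here, so this count cannot be set beside the 25.3%.

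**Figure D1:**
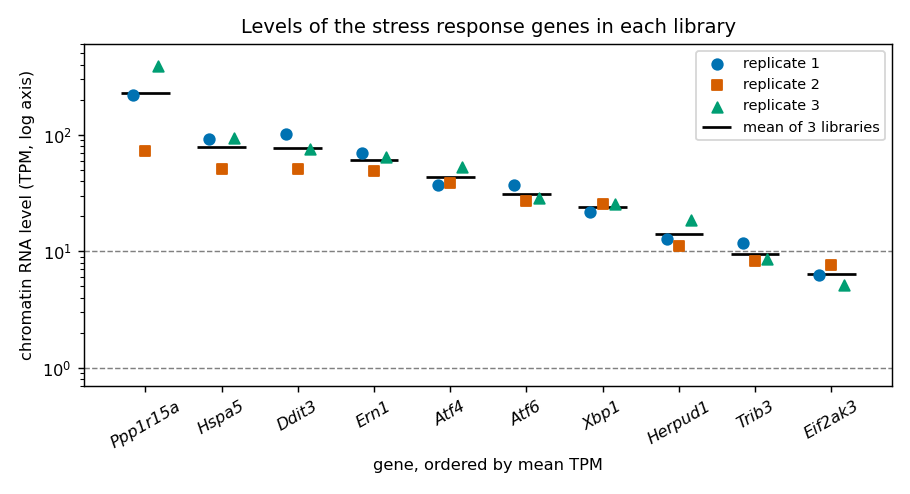
Level of each gene in each library, in TPM on a log axis, with genes ordered by their mean (black bar) and dashed lines at the floors of 1 and 10 TPM. Ppp1r15a spreads from 72.8 to 385 TPM, while Xbp1 stays between 21.6 and 25.4 TPM.

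Among the 3 sensors the order of levels was Ern1, then Atf6, then Eif2ak3, in every library. Ern1, which encodes the kinase and ribonuclease IRE1alpha (mm10 chromosome 11, 106394650 to 106487852, minus strand), had 69.6 TPM in replicate 1, 49.2 TPM in replicate 2 and 63.8 TPM in replicate 3. Replicate 2 was the lowest, and the mean of 60.9 ± 10.5 TPM (SD, n = 3) exceeded 1 TPM by 5.78 on the log2 scale (SE 0.17; limma, adjusted p = 4.01e-05). Atf6 (chromosome 1, 170704674 to 170867771, minus strand) had 36.8, 26.9 and 28.9 TPM in replicates 1, 2 and 3, or 30.8 ± 5.27 TPM. Eif2ak3, which encodes PERK (chromosome 6, 70844515 to 70905245, plus strand), had 6.32, 7.67 and 5.17 TPM. It was the lowest of the 10, above 1 TPM (limma adjusted p = 0.000259) but below 10 TPM in every library, and 56.9% of protein-coding genes tested had a lower mean.

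Of the transcription factor genes, Ddit3 had a higher mean than any sensor, and Atf4 and Xbp1 lay between Ern1 and Eif2ak3. Ddit3, which encodes CHOP, a C/EBP-family factor tied to cell death under prolonged stress (chromosome 10, 127290774 to 127296288, plus strand), had 102 TPM in replicate 1, 51.0 TPM in replicate 2 and 75.8 TPM in replicate 3. Its mean of 76.4 ± 25.8 TPM (SD, n = 3) exceeded that of 94.3% of protein-coding genes tested. Atf4 (chromosome 15, 80255184 to 80257541, plus strand) had 36.9, 38.9 and 53.2 TPM, with replicate 3 apart from the other 2, and a mean of 43.0 ± 8.91 TPM. ATF4 is controlled mainly through translation, which these data do not read. Xbp1 (chromosome 11, 5520659 to 5525893, plus strand) had 21.6, 25.4 and 25.4 TPM, a mean of 24.1 ± 2.22 TPM and the smallest coefficient of variation of the 10 genes, at 9.18%. The error of counting alone, 1 over the square root of the count, was up to 6.13% for it.

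A second identifier also carries the symbol Ddit3. It is a short overlapping coding entry within the same locus (127290829 to 127293753), whose only transcript, Ddit3-204 in the annotation, has 105 bases. It had 0 expected counts in all 3 libraries of the gene table but 26.3, 20.2 and 10.3 estimated counts in the second transcript table. At that length these few counts came to 111, 47.5 and 24.8 TPM there, so its level is uncertain and it was kept out of the values for Ddit3.

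Xbp1 levels say nothing here about IRE1 activity, because IRE1 is a sensor in the ER membrane and this RNA came from chromatin. Besides, none of the 4 annotated transcripts is the form with the IRE1 segment cut out. The segment with its flanks was found in 3 of them but not in Xbp1-202, and 0 of the 4 joined the flanks without it. The segment was located as the only pair of CNGCAGC loops, out of 3 such loops in the coding sequence of the full-length Xbp1 transcript, whose cut points (after the third base) lie within 60 bases of each other. It lies in exon 4, is 26 bases long, which is not a multiple of 3, and is shown in capitals between 12 bases on either side because its loss is the event that the unfolded protein response is known for.
Xbp1 segment, mm10 chr11:5524279-5524304 (the capitals), plus strand: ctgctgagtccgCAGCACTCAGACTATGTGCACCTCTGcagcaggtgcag

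The feedback genes differed most from each other. Ppp1r15a encodes GADD34, the subunit that brings protein phosphatase 1 to eIF2alpha and restores translation (chromosome 7, 45522916 to 45526268, minus strand). It had 220 TPM in replicate 1, 72.8 TPM in replicate 2 and 385 TPM in replicate 3, or 226 ± 156 TPM (SD, n = 3). By these values it was the highest of the 10 genes in each library and exceeded 98.7% of protein-coding genes by its mean. In the second transcript table it had 40.9 TPM in replicate 2, below Ddit3, Ern1 and Hspa5. It exceeded 10 TPM by 4.18 on the log2 scale (SE 0.52; limma, adjusted p = 0.00567), and without replicate 1 the call was lost at 4.05 (adjusted p = 0.085). Trib3, which encodes a pseudokinase that binds CHOP and AKT (chromosome 2, 152337422 to 152344032, minus strand), had 11.8, 8.21 and 8.61 TPM. Its mean of 9.54 ± 1.97 TPM lay above 1 TPM (limma adjusted p = 0.000143) and was not called above 10 TPM.

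The ER-resident target genes were also far apart. Hspa5 encodes BiP, the main chaperone of the ER lumen (chromosome 2, 34771970 to 34777547, plus strand), and had 92.2 TPM in replicate 1, 50.9 TPM in replicate 2 and 93.9 TPM in replicate 3. Replicate 2 was apart from the other 2, and the mean was 79.0 ± 24.3 TPM (SD, n = 3). Herpud1 encodes a membrane protein of the complex that exports misfolded proteins for degradation (chromosome 8, 94386438 to 94395377, plus strand), and had 12.8, 11.2 and 18.6 TPM. Its mean of 14.2 ± 3.85 TPM was above 10 in each library but was not called above that floor (difference 0.47 on the log2 scale, SE 0.21; limma, adjusted p = 0.206). In the second transcript table Herpud1 had 23.4 ± 5.60 TPM and was called (adjusted p = 0.0122).

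Hspa5 and Herpud1 are textbook targets of ATF6 and XBP1, through the ER stress element ERSE and its variant ERSE-II, so their upstream sequences are printed, with that of Ppp1r15a as the highest and most variable gene. RefSeq windows (GRCm38.p6, the primary sequence of mm10) were matched for 9 of the 10 genes, and Atf6 had none. The 250 bases before the RefSeq start were searched on both strands for ERSE (CCAAT and CCACG with 9 bases between them), ERSE-II (ATTGG and CCACG with 1 base between them), the C/EBP-ATF core (TGATGNAA), the cyclic AMP response element CRE (TGACGTCA), the UPRE core (TGACGTGG) and the CCAAT box (CCAAT), which is contained in ERSE and, reversed, in ERSE-II. Capitals mark every match except plain CCAAT boxes.
Hspa5, chr2:34771840-34772089, plus strand: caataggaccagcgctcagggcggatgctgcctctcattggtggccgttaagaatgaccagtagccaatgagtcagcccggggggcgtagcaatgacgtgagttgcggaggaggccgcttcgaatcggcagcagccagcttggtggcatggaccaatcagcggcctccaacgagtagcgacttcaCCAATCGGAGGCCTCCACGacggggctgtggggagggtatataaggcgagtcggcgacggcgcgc
Herpud1, chr8:94386179-94386428, plus strand: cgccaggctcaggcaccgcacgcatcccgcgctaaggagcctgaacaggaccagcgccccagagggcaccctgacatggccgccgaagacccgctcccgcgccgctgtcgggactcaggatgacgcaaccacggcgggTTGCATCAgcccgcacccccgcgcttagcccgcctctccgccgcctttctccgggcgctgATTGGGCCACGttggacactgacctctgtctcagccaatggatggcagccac
Ppp1r15a, chr7:45526269-45526518, minus strand: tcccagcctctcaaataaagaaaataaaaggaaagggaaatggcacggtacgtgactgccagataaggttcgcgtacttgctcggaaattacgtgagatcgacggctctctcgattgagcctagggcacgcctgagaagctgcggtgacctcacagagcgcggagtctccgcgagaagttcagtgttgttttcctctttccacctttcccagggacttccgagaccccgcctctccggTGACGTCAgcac

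The Hspa5 window held 1 ERSE, from 65 to 47 bases before the start (positions -65 to -47), and 4 CCAAT boxes. The Herpud1 window held 1 ERSE-II at -52 to -42 and 1 C/EBP-ATF core at -112 to -105. The Ppp1r15a window held 1 CRE at -12 to -5. Each was the only match to its motif among the windows of the 9 genes. The Herpud1 window ends, from -18, in CCAAT, 9 bases and CCAC, which is ERSE without its last letter. The next base lies outside the window and was not searched, so ERSE is not shown to be particular to Hspa5. Of 32851 RefSeq windows of the same length, 0.113% held ERSE, 0.0304% ERSE-II, 3.45% the C/EBP-ATF core, 1.55% CRE and 0.563% the UPRE core, which none of the 9 held. The CCAAT box was in 5 of the 9 windows and in 33.8% of all. The matches describe the letters and say nothing of binding. GENCODE places the Hspa5 start at 34771970, inside the printed window, so the distances hold for the RefSeq start only.

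Ordered by mean TPM, the genes ran Ppp1r15a, Hspa5, Ddit3, Ern1, Atf4, Atf6, Xbp1, Herpud1, Trib3 and Eif2ak3. Within libraries, 7 of the 9 neighbouring pairs differed in the same direction in all 3 and by more than the SD of the difference. The exceptions were Hspa5 with Ddit3, at 0.05 log2 units (SD 0.24, n = 3), and Atf6 with Xbp1, at 0.34 (SD 0.37, n = 3). The widest step was between Ppp1r15a and Hspa5, at 1.25, 0.52 and 2.04 log2 units in replicates 1, 2 and 3. An exact sign-flip test over 3 libraries cannot go below a two-sided p of 0.25, so no p is given. The order came from the same 3 libraries, which largely sets the direction of each mean difference. Some of the 7 pairs were close in a library, such as Atf4 with Atf6 in replicate 1 (0.0 log2 units) and Ddit3 with Ern1 in replicate 2 (0.05). The order is less firm than these numbers, since with the second transcript table only 3 pairs met the same rule, and Ppp1r15a, at 40.9 TPM in replicate 2, then lay below Hspa5, at 51.0 TPM.

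Replicates differed much more for some genes than for others. On the log2 CPM scale (counts scaled to library size, with TMM factors that align libraries by most of their genes), Ppp1r15a was 0.54 above the mean of the libraries in replicate 1, at -1.51 in replicate 2 and 0.97 above in replicate 3. This range of 2.47 was wider than that of 99.7% of the 14140 genes with enough counts, whose median range was 0.47. Counting error of Ppp1r15a was at most 2.20%, against a coefficient of variation of 69.2% in TPM. The ratio of highest to lowest library was 5.29 in the gene table and 5.92 in the second transcript table. Ddit3 followed with a range of 1.06 and Hspa5 with 1.01. At the other end, Eif2ak3 and Xbp1 had ranges of 0.11 and 0.12, and only 5.53% and 6.33% of genes had smaller ones. Eif2ak3 was less even in TPM, with a highest-to-lowest ratio of 1.48 and a coefficient of variation of 19.6%. Its counting error was up to 7.42%.

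**Figure D2:**
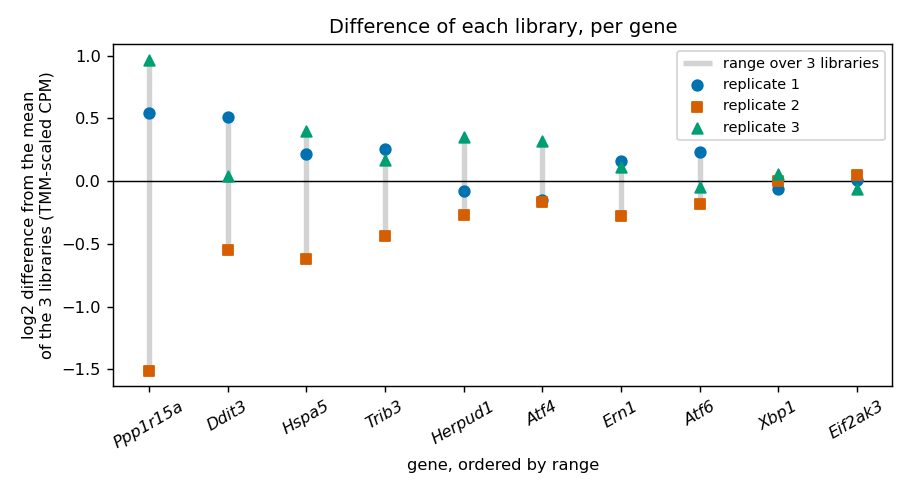
Log2 difference of each library from the mean of the 3 libraries (TMM-scaled CPM), with genes ordered by range (grey line). Replicate 2 is the lowest library for 8 of the 10 genes, and Xbp1 and Eif2ak3 have the smallest ranges on this scale.

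On TMM-scaled CPM, replicate 2 was the lowest library for 8 of the 10 genes, all but Xbp1 and Eif2ak3. Of the 14140 genes, 35.3% were lowest there. For Atf4 the margin was small (-0.17 against -0.15 in replicate 1). With scaling by library total alone replicate 1 was lowest for Atf4, leaving 7 of the 10 genes, beside 28.0% of the 14140 genes. Hspa5 was at -0.62, Ddit3 at -0.55 and Trib3 at -0.44 in replicate 2. Replicate 2 also had the smallest RNA input. The other lists of the pathway were summed in TPM, not on that scale, and did not all share its position. In replicates 1, 2 and 3 the summed level was 692, 479 and 661 TPM for 30 ATF4 and CHOP targets. It was 339, 305 and 346 TPM for 20 chaperone and folding genes and 391, 354 and 382 TPM for 15 degradation genes. The 20 genes of the sensors and the eIF2alpha arm summed to 464, 468 and 401 TPM, nearly equal in replicates 1 and 2. Their highest gene, Eif2ak2, had 264, 216 and 186 TPM. Protein-coding genes held 33.3%, 29.7% and 31.4% of TPM in these replicates. A sum in TPM that is lowest in replicate 2 therefore need not be lowest on the CPM scale. The part of RNA input in these differences was not tested. Replicate 1 held the highest level of Ddit3, Trib3, Ern1 and Atf6, and replicate 3 that of Ppp1r15a, Hspa5, Herpud1, Atf4 and Xbp1, so the genes did not all follow 1 order of libraries.

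Transcripts annotated with retained introns took a large share of the counts of several genes. For Ddit3, Ddit3-202 is the transcript of that type and took 63.7% ± 3.99 of the expected counts (SD, n = 3), and for Atf4 it is the single-exon Atf4-203, which runs through both introns and took 59.0% ± 5.21. The share typed this way was 29.2% ± 2.30 for Xbp1, 19.3% ± 2.27 for Atf6, 18.0% ± 2.50 for Eif2ak3, 17.1% ± 2.83 for Herpud1, 7.17% ± 4.12 for Trib3 and 5.39% ± 1.45 for Hspa5. Ern1 and Ppp1r15a have no transcript of that type in the annotation. The types are a rough guide to intronic RNA. Among transcripts annotated with retained introns, only Atf4-203 and Hspa5-205 have an exon that spans a whole intron of the first-numbered transcript. Ddit3-202 has no such exon, so its share is not a share of reads across whole introns. The types also miss part of the intronic RNA. Ppp1r15a-202 is typed protein-coding but has an exon that spans a whole intron of Ppp1r15a-201 and took 70.7% ± 2.28 of the counts of Ppp1r15a. In the same way Hspa5-202 took 49.5% ± 3.39 of the counts of Hspa5 and Xbp1-203 took 14.9% ± 1.26 of those of Xbp1. With such transcripts added, the share was 54.9% ± 2.13 for Hspa5 and 44.1% ± 3.57 for Xbp1.

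**Figure D3:**
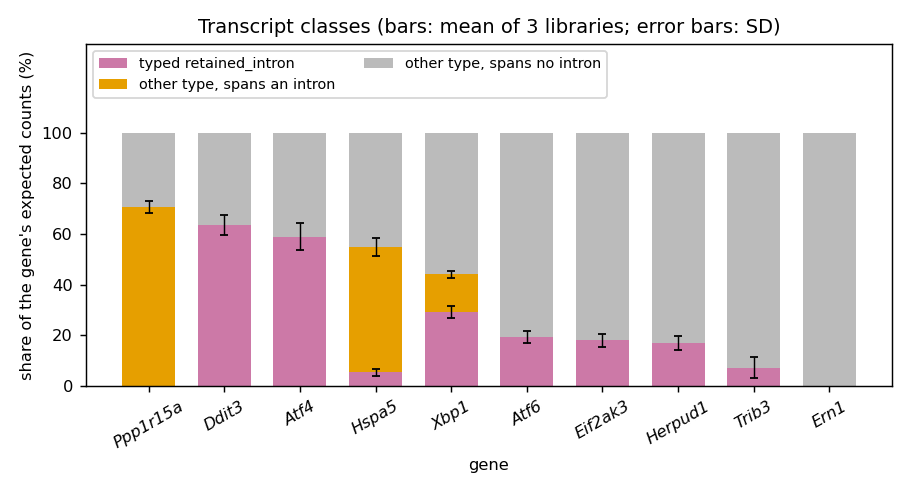
Share of the expected counts of each gene, in percent, in transcripts typed retained_intron, in transcripts of another type with an exon that spans a whole intron of the first-numbered transcript of the gene, and in all others (mean of 3 libraries, error bars SD). Ppp1r15a, Ddit3, Atf4 and Hspa5 have over 50% in the first 2 classes together.

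The share of Ppp1r15a-202 in the counts of its gene was 70.4%, 73.1% and 68.6% in replicates 1, 2 and 3, while the level of the gene ranged over 5.29-fold. As a share of TPM it was less even, at 64.8%, 51.1% and 49.4%. The second transcript table gave 71.2% ± 1.40 for Ppp1r15a-202, 60.2% ± 1.85 for the Ddit3-202 transcript and 61.4% ± 4.82 for Atf4-203. Reads in introns that no annotated transcript covers are not counted at all, so the shares are not a measure of splicing and cannot be compared between genes as such. Short transcripts weigh heavily in TPM: Ppp1r15a-203, of 389 bases, held 1.43% ± 1.11 of the counts of its gene but 2.02%, 27.6% and 24.7% of its TPM in replicates 1, 2 and 3.

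Genes annotated on the other strand overlap 4 of the 10, and the sources used here do not give whether counting used strand. Tulp2 overlaps Ppp1r15a over 717 bases and had 8.29, 3.30 and 7.63 TPM. Like Ppp1r15a it was lowest in replicate 2, and which of the loci its reads came from was not tested. Mars overlaps Ddit3 over 68 bases and had 15.9 to 18.2 TPM. Gm43292 overlaps Eif2ak3 over 2449 bases (1.27 to 1.93 TPM), and Gm15890 overlaps Herpud1 over 535 bases (up to 0.48 TPM).

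Most other genes of the pathway were also above 1 TPM. Of 85 listed genes 73 passed (limma), where 51.1% of all genes and 61.8% of protein-coding genes tested did. Listed genes at 0 in every library were not tested and count among the 85 as not passing. The median of the 85 was 11.1 TPM, beside 4.17 TPM for protein-coding genes tested and 36.9 TPM for the 10 genes. Among 20 genes of the sensors and the eIF2alpha arm 19 passed. The highest was Eif2ak2, with 264, 216 and 186 TPM (222 ± 39.4, SD, n = 3). It encodes PKR, the double-stranded RNA sensor that phosphorylates eIF2alpha and is an interferon-induced gene, and it lay above Eif2ak3, the PERK gene, in every library. Mbtps1, the Golgi protease that first cuts ATF6, had 35.0 ± 1.66 TPM, and Eif2ak4, which encodes the amino acid sensor GCN2, had 31.9 ± 1.40 TPM. Ern2, the epithelial relative of Ern1, did not pass, at 0 TPM in replicates 1 and 2 and 0.02 TPM in replicate 3.

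Among 20 chaperone and folding genes 18 passed. Hsp90b1, the ER form of HSP90, had 76.6 ± 6.99 TPM, and the lectin chaperone genes Calr and Canx had 47.8 ± 6.72 and 38.5 ± 6.97 TPM (SD, n = 3 each). The mean of Hsp90b1 lay next to that of Hspa5, but its 3 libraries stayed within 68.9 to 82.5 TPM where Hspa5 ran from 50.9 to 93.9 TPM. Dnajb9, a co-chaperone of BiP and a known XBP1 target, had 2.72, 0.91 and 2.85 TPM and did not pass (adjusted p = 0.0804, limma), and Sdf2l1 had 0.21, 0.52 and 0.62 TPM.

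All 15 genes of ER-associated degradation passed. Vcp, the ATPase that pulls proteins out of the membrane, had 102 ± 6.34 TPM, the adaptor gene Sel1l 68.0 ± 7.38 TPM and Ubxn4 35.0 ± 5.97 TPM (SD, n = 3 each). Of 30 ATF4 and CHOP targets 21 passed, a share near the 61.8% of protein-coding genes tested. The genes tested leave out those at 0 in every library, and the 30 include such genes, so the shares have unlike bases. The 9 targets that did not pass had means from 0 to 1.78 TPM. The highest were Slc3a2, a subunit of amino acid transporters, with 95.7 ± 9.31 TPM, the stress factor gene Atf3 with 88.2, 28.7 and 84.1 TPM, and the cytokine gene Gdf15 with 73.1, 33.5 and 89.9 TPM in replicates 1, 2 and 3. Atf3 and Gdf15 were lowest in replicate 2, as Ddit3 and Ppp1r15a were, and Slc3a2, with 106 TPM there, was not.

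**Figure D4:**
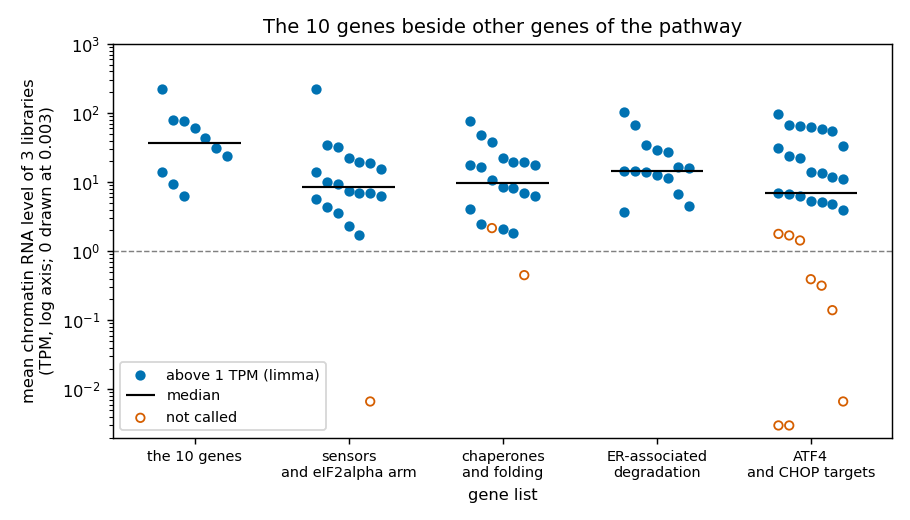
Mean level over 3 libraries, in TPM on a log axis, of the 10 genes and of the 85 other genes of the pathway in their 4 lists; filled points were above 1 TPM by limma, open points were not, and black bars are medians. The 10 genes have a median of 36.9 TPM, and the lists have medians from 6.88 to 14.7 TPM.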

How the data were processed

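Chromatin RNA of 3 replicates of 1 group was used. The authors deposited, per library, a gene table and a transcript table with expected counts and TPM and, from another tool, a second transcript table which, per the file headers, gives TPM and estimated counts. The layouts are those of RSEM and kallisto. Assembly mm10 and annotation M21 are given by the deposited text files, while the sources used here do not name the aligner, versions or use of strand. Rows that name no gene held 0.401% to 1.04% of counts and were left out. A gene at 0 counts could have had up to 3, or 0.164 to 0.242 CPM, which covers counting error only.

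For levels, limma 3.58.1 fitted the mean of log2(TPM + 0.1) of each of 24180 genes, and one-sided tests asked whether it exceeded floors of 1 and 10 TPM (Benjamini-Hochberg adjusted p below 0.05). The log2 scale understates differences near 0.1 TPM. In simulated counts, with a biological coefficient of variation of 0.3 and 22408 genes, 0% of 50 genes at 1 TPM, 76% at 2 TPM and 100% at 4 TPM were called above 1 TPM, and 70% of 50 genes at 20 TPM above 10 TPM. Library differences used expected counts rounded to whole numbers, edgeR 4.0.16 with TMM and filterByExpr, and a prior count of 0.5. DESeq2 1.42.0, R 4.3.3 and python 3.11.15 were also used.

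The 10 genes and all lists were chosen with earlier results of these data known. Named pathway genes were the 3 highest of each list by mean TPM, and those not passing 1 TPM where these were 5 or fewer. The intron-spanning class was added after seeing the data. Promoter windows came from RefSeq (GRCm38.p6).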

Additional observations from a re-analysis of the deposited data

How the results depend on the processing

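All 10 genes stayed above 1 TPM in each of 8 alternatives (second transcript table, pseudocounts of 1 and 0.01, a mean expected count of at least 10, TPM rescaled over protein-coding genes, each replicate left out). Of the 80 comparisons with 10 TPM, 75 kept their call, above the floor or not. Among these 75, Trib3 stayed uncalled but moved from -0.09 to 0.40 log2 units in the second transcript table. Without replicate 2 it was at 0.01. The other 5 were Herpud1 in the second transcript table (1.19 log2 units above the floor), Herpud1, Trib3 and Eif2ak3 with rescaled TPM (2.13, 1.57 and 1.00), which passed, and Ppp1r15a without replicate 1 (4.05), which no longer did. The number of neighbouring genes whose levels differed beyond their spread fell from 7 to 3 in the second transcript table, and the cause was not tested. Shares in transcripts typed as retaining an intron moved by more than their SD for 5 of 8 genes in the second transcript table and for 7 of 8 as shares of TPM, for example from 5.39% to 33.0% for Hspa5. Depth limits Trib3, Herpud1 and Eif2ak3 most, with counting errors of up to 8.39%, 8.01% and 7.42%. No paired analysis was possible because there was 1 group.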
